A study of Mus musculus with 4 samples.

Results

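Cycling T and NK cells were 632 of the 14855 cells kept from 4 single-cell RNA libraries of mouse pancreatic tumours, and 632 of the 4105 T and NK cells among them (15.4%). Members were chosen by measured values: a cell was taken when it held at least 2 UMIs (unique molecular identifiers, counted RNA molecules) of Mki67 and Top2a together and at least 2 of Cd3e, Cd3d, Cd3g and Nkg7 together. It also had to hold no Cd79a or C1qa UMI, fewer than 10 H2-Ab1 UMIs and at most 1 Krt8 or Krt18 UMI, which set B cells, macrophages, antigen-presenting cells and tumour epithelium apart. The same lineage gates without any Mki67 or Top2a UMI gave 2927 non-cycling T and NK cells for comparison, and 546 more cells held exactly 1 such UMI. Mki67 encodes a protein that coats mitotic chromosomes and is made only in cycling cells, and Top2a encodes the topoisomerase that untangles sister chromatids.

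The mice were C57BL/6 and carried orthotopic B6KPC3 tumours, which are pancreatic ductal adenocarcinomas grown in the pancreas from a transplanted line. Tumours were 7 days old when dosing started. AT38, a compound given here only by its code name, was injected intraperitoneally as 2 injections a day for 7 days at 30 mg/kg per day in 1% carboxymethyl cellulose in water, and the control mice received that vehicle alone. Each group had 2 libraries, each library pooled the tumours of 4 mice, and the cells were sorted for CD45, the surface protein of leukocytes, before 3' sequencing on the 10x Chromium. The study's title sets cytotoxic T lymphocytes and nitrosative stress as its subject.

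A T or NK cell that divides passes through S phase, in which DNA is copied, and G2 and M phase, in which the copies are condensed and separated. S-phase genes such as Pcna and the Mcm helicase genes are switched on by E2F factors, and G2/M genes later by a complex of B-MYB and FOXM1 that reads a short element called CHR, often beside CCAAT boxes bound by NF-Y. In tumours the dividing lymphocytes are known to include CD8 T cells that have met antigen, regulatory T cells and NK cells.

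Members numbered 108 and 160 in vehicle 1 and vehicle 2, and 189 and 175 in AT38 1 and AT38 2. Their summed UMIs ranged from 1395033 to 2567815 per library, and their median depth from 10462 to 11554 UMIs per cell. Non-cycling cells were shallower, at a median of 4186 UMIs against 11097 over all members. No member's barcode was shared between libraries, although 24 barcodes of all cells were. Since the library was the replicate and pooled 4 mice, p-values measure the spread between pools.

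The label held for the cells well above the threshold and only in part for those at it. Of the 632 members, 191 (30.2%) held exactly 2 Mki67 and Top2a UMIs, 87 held 3, and 354 (56.0%) held 4 or more. Stmn1, which encodes the microtubule regulator stathmin and was not used by the rule, had a UMI in 22.5% of the members at 2 and in 40.2% of those at 3. It had one in 94.1% of the members with 4 or more, against 16.8% of cells with 1 Mki67 or Top2a UMI and 7.89% of non-cycling cells. The S-phase list of 30 genes gave 13.6 UMIs per 10000 in members at 2, 9.03 in non-cycling cells and 43.5 in the 253 members with 10 or more. The G2/M list of 43 genes, which holds neither Mki67 nor Top2a, gave 7.81, 6.26 and 65.6 in the same order. Median depth rose along the same scale, from 6577 UMIs at 2 to 17363 at 10 or more. By library, members at exactly 2 UMIs were 33.3% and 21.9% of members in vehicle and 27.0% and 39.4% in AT38, which overlap. Members with 4 or more were 55.6% and 63.1% in vehicle and 54.5% and 51.4% in AT38, so both AT38 libraries lay below both vehicle libraries. Top2a had a UMI in 91.8% of members and Mki67 in 71.2%.

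**Figure D1:**
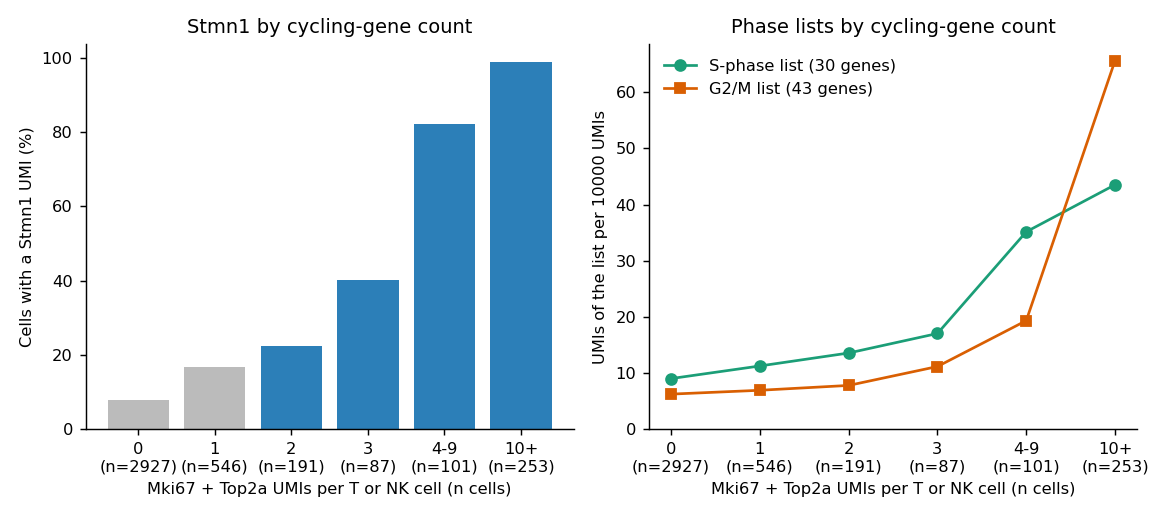
Share of T and NK cells with a Stmn1 UMI (left, percent) and UMIs of the S-phase and G2/M lists per 10000 UMIs (right) by the cell's Mki67 plus Top2a UMI count, over all 4 libraries. Blue bars are members, grey bars are cells below the threshold, and the left panel goes from 7.89% at 0 UMIs to 98.8% at 10 or more.

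Cd3e, a subunit of the CD3 complex and one of the genes that chose the members, had a UMI in 89.9% of them. None of the 3 Cd3 genes had a UMI in 33 members (5.22%), and 23 of these held Ncr1, the gene of the NK receptor NKp46. RNA of other lineages was present in some members. In 71 of 632 (11.2%), at least 20 UMIs came from S100a8 with S100a9 (neutrophils), Lyz2 or Cst3 (myeloid cells), the globins, or Igkc (B cells). Summed over all 8 neutrophil markers, members held 13952 CPM (UMIs per 1e+06 UMIs of the summed cells) in vehicle 1 and 842 in vehicle 2, and 2080 and 591 in the AT38 libraries. A pair of vehicle 1 cells held 88.8% of that library's S100a8 and S100a9 UMIs. The 7 B cell markers summed to 1310 CPM in vehicle 1 and 80.9 to 107 in the other libraries, with Ms4a1 at 0 in all. The 9 stromal and red blood markers summed to 3343 CPM in AT38 2 and 22.05 to 45.9 elsewhere, with Cdh5 at 0, and 1 AT38 2 cell held 8461 globin UMIs. The 10 monocyte and macrophage markers ranged from 978 to 1204 CPM in vehicle and 747 to 983 in AT38, and the 10 dendritic cell markers from 385 to 431 and from 303 to 385. The 10 epithelial and acinar markers stayed between 12.2 and 44.4 CPM. The part of these cells in the results was not tested beyond leaving them out, and values without the 71 cells stand beside several of the results.

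Promoters are shown from the top of the G2/M list, chosen by level in members and not by a difference between groups. The 3 genes with the highest level in members were Cks2, a subunit partner of the cyclin-dependent kinases, Smc4, a subunit of the condensin ring, and Ube2c, a ubiquitin-conjugating enzyme of the anaphase-promoting complex. Sequences are printed for Cks2 and Ube2c, and Smc4 is named only. Cks2 was at 323, 322, 314 and 349 CPM in members of vehicle 1, vehicle 2, AT38 1 and AT38 2, and at 150, 153, 153 and 171 CPM in non-cycling cells. Ube2c was at 303, 319, 238 and 302 CPM in members and at 6.52, 4.08, 6.87 and 7.01 CPM in non-cycling cells. The sequences are RefSeq's for GRCm38.p6, from 250 bases before to 50 after the start of transcription, 5′ to 3′, and both genes lie on the plus strand. Capitals mark the CHR element (TTTGAA or TTCGAA) and CCAAT, searched on both strands, where matches may overlap.
Cks2, chr13:51644982-51645281: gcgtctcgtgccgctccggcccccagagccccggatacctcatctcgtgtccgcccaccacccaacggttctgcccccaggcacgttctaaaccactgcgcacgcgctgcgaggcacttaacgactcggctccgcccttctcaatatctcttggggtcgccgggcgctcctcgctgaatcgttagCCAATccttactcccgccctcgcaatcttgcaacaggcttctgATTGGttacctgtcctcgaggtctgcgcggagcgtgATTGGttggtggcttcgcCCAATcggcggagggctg
Ube2c, chr2:164769679-164769978: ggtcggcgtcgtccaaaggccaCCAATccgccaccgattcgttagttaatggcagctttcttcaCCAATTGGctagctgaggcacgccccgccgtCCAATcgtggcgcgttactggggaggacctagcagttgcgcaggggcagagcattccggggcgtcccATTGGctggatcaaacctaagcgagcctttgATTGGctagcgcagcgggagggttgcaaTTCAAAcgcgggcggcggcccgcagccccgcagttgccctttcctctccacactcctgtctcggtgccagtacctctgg
The Cks2 window held 4 CCAAT matches and no CHR match, and the Ube2c window held 6 CCAAT matches, of which one pair overlaps, and 1 CHR match. Of the 43 genes of the G2/M list, 36 were in the promoter table. A CHR match was present in 27 of these 36 (75%) against 19.4% of all 27025 promoters, and CCAAT likewise in 27 (75%) against 37.9%. Both stood in 23 of 36 (63.9%) against 7.70% of all promoters. Of the 30 S-phase genes, 24 were in the table, with a CHR match in 5 (20.8%) and CCAAT in 16 (66.7%). An E2F element (TTTCCCGC, TTTGGCGC or TTTCGCGC, both strands) stood in 9 of the 24 (37.5%), in 2 of the 36 G2/M genes (5.56%) and in 1.91% of all promoters. A match describes the letters in the window and not binding.

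Members and non-cycling cells were compared as a description only, because the cells were split by 2 cell cycle genes. Of 8348 genes at 10 CPM or more in either state, 2601 (31.2%) were higher in members in all 4 libraries and 2524 (30.2%) lower in all 4. All 29 genes for replication licensing and DNA synthesis were higher in all 4 libraries, with a median log2 ratio of 2.23, against -0.0016 over all 8348 genes (log2 of CPM + 1, means of 4 libraries). Pcna, the sliding clamp of the replication fork, was at 263 ± 19.8 CPM (SD, n = 4) in members and 118 ± 13.2 in non-cycling cells. Rrm2, the small subunit of ribonucleotide reductase, was at 146 ± 23.2 against 4.96 ± 0.48 CPM, 29.5 times as high. All 19 genes of nucleotide and folate metabolism, all 43 G2/M genes and all 20 genes of chromatin, histones and tubulin were likewise higher in all 4 libraries, with median log2 ratios of 1.34, 3.80 and 1.48. Stmn1 was at 684, 739, 649 and 614 CPM in members and 27.9, 24.7, 26.9 and 24.1 in non-cycling cells, 25.9 times as high in the means. Hmgb2, a chromatin protein, was at 3352 ± 220 CPM against 588 ± 21.5.

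Growth genes were higher and genes of rest were lower in members. Of 22 MYC targets and ribosome biogenesis genes, 17 were higher in all 4 libraries and 1, Odc1, was lower in all 4, and the median log2 ratio was 0.55. Ran, the GTPase of nuclear transport, was at 681 ± 86.1 CPM against 221 ± 4.56. Of 20 glycolysis and hypoxia genes, 12 were higher and 4 lower in all 4 libraries, against 31.2% and 30.2% of all genes. Gapdh was at 1321 ± 154 against 736 ± 23.1 CPM. All 14 genes of quiescence and growth restraint were lower in all 4 libraries, with a median log2 ratio of -0.92. Among them were Btg1, an antiproliferative cofactor, at 1671 ± 155 against 3520 ± 218 CPM, and Klf2, a factor of resting and recirculating lymphocytes, at 196 ± 77.5 against 802 ± 98.0. Of 15 naive and memory genes, 12 were lower in all 4 libraries and none higher, with a median log2 ratio of -1.46. Tcf7, the factor of stem-like T cells, was at 87.6 ± 24.1 against 253 ± 9.53 CPM. Of 18 immediate early and heat shock genes, 14 were lower and 2, Hspa8 and Hsp90aa1, higher in all 4 libraries.

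Of 12 cytotoxic effector genes at 10 CPM or more, 9 were lower in members in all 4 libraries and 2 higher, with a median log2 ratio of -0.43. Over all genes, 30.2% were lower and 31.2% higher in that way. Gzma, granzyme A, was at 168 ± 59.7 against 541 ± 145 CPM and Prf1, perforin, at 83.6 ± 16.1 against 114 ± 10.4. Ccl5, a chemokine of effector cells, was at 1044 ± 168 against 2579 ± 360, whereas Xcl1, the chemokine that draws cross-presenting dendritic cells, was at 1180 ± 389 against 676 ± 122. Pdcd1, which encodes the inhibitory receptor PD-1, was at 172 ± 8.70 against 114 ± 20.1 and higher in all 4 libraries. The 19 inhibitory receptor and exhaustion genes split into 6 higher, 6 lower and 7 mixed. This split lies near the shares over all genes and is no result about the list. Of 21 NK genes, 15 were lower in all 4 libraries and 1, Xcl1, higher.

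Both states differ in lineage, so the same comparison was made within cells that held Cd8b1 and neither Foxp3 nor Ncr1, here called Cd8b1-only. In these, 28 of 29 replication genes, 42 of 43 G2/M genes and 15 of 22 MYC targets were higher in members in all 4 libraries, and 13 of 14 quiescence genes were lower in all 4. The cytotoxic genes went from 9 lower in all 4 libraries to 4 of 12, with none higher in all 4. Over all 8284 genes of this comparison, which the rule used, 24.6% were lower and 25% higher in all 4, and the counts are a description. Gzma was at 72.4, 199, 37.5 and 25.1 CPM in Cd8b1-only members of vehicle 1, vehicle 2, AT38 1 and AT38 2, against 123, 145, 360 and 37.7 in Cd8b1-only non-cycling cells. Pdcd1 was still higher in members of this class in each library, at 219, 222, 196 and 212 against 193, 187, 174 and 178 CPM. Most of its list did not go with it. Of 20 inhibitory receptor and exhaustion genes in this class, 2 were higher and 8 lower in all 4 libraries, with a median log2 ratio of -0.24.

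**Figure D2:**
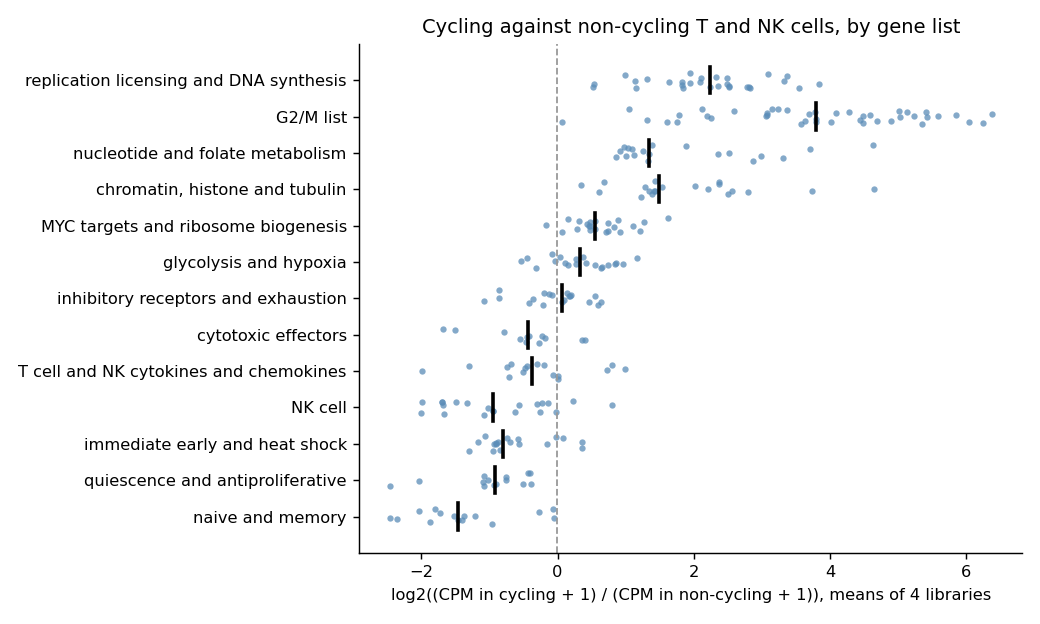
Log2 ratio of the mean CPM (plus 1) in cycling over non-cycling T and NK cells, 1 point a gene at 10 CPM or more, by gene list. Black bars are list medians, from 3.80 for the G2/M list to -1.46 for naive and memory genes, and the dashed line is the median of all genes.

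Cells with Cd8b1, the beta chain of the CD8 coreceptor, made up most of the members. Cd8b1-only cells were 54.6% and 57.5% of members in vehicle and 60.8% and 54.3% in AT38, and 28.2% to 33.7% of non-cycling cells. Foxp3-only cells (Foxp3 is the regulatory T cell factor) were 1.85%, 6.88%, 5.29% and 5.71% of members in the order vehicle 1, vehicle 2, AT38 1 and AT38 2, from 2, 11, 10 and 10 cells. Ncr1-only cells were 5.56%, 6.25%, 3.17% and 6.29%, from 6, 10, 6 and 11 cells. None of the 3 genes had a UMI in 174 members (27.5%), 101 of which held Cd4, the helper T cell coreceptor, and 31 held more than 1 of the 3.

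Depth weighed on these shares, so every cell was also thinned to 2000 UMIs, which left out 5 members and 234 non-cycling cells as shallower. Cd8b1 then had a UMI in 39.6% of members (95% exact binomial interval 35.7 to 43.5) and 24.0% of non-cycling cells (22.4 to 25.6), against 61.9% and 32.6% before thinning. In B cells, which should lack the gene, the share was 0.476% after thinning and 1.06% before, at a median of 3241 UMIs. These were cells with at least 2 Cd79a UMIs and no Cd3 or Nkg7 UMI. That choice leaves out cells with stray RNA of those T and NK cell genes, so the share may understate the background. Ncr1 went the other way, at 2.39% of thinned members (1.35 to 3.92) and 5.35% of thinned non-cycling cells (4.53 to 6.27). Foxp3 was found in 5.42% (3.78 to 7.50) and 4.05% (3.34 to 4.86), which overlap. Trdc, the constant segment of the gamma-delta T cell receptor, was found in 2.55% (1.47 to 4.11) and 5.16% (4.36 to 6.07). These intervals cover counting error only. In CPM, Cd8b1 was higher in members in all 4 libraries, at 330 ± 43.4 against 232 ± 25.2 (SD, n = 4), and Ncr1 lower in all 4, at 12.2 ± 4.45 against 32.1 ± 4.41.

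Members were 23.6% of Cd8b1-only T and NK cells, 16.3% of Foxp3-only, 11.5% of Ncr1-only and 8.67% of those with none of the 3 genes. With both the threshold and the lineage classes set after thinning to 2000 UMIs, the shares were 10.0%, 7.79%, 2.37% and 6.12%, from 106, 12, 4 and 150 cells. Cells that lost their lineage UMI by thinning then counted in the class with none of the 3 genes. The order of that class and the Ncr1-only class is therefore not a result about the classes. The lineage classes carried further genes of their type that the classes were not built on, picked here as known markers after their values were seen. Pooled over libraries, Foxp3-only members held Il2ra, the high-affinity interleukin 2 receptor chain, at 635 CPM against 50.9 in Cd8b1-only members, and Ikzf2, the factor Helios, at 1382 against 283. Areg, the epidermal growth factor receptor ligand amphiregulin, was at 310 CPM in Foxp3-only members and 4.96 in Cd8b1-only members. Ncr1-only members held Gzma at 1313 CPM, Eomes at 311 and Tyrobp at 642, against 77.9, 41.7 and 99.3 in Cd8b1-only members. The same class also held Trdc at 89.3 CPM, from 37 UMIs and with 338 CPM in AT38 1. Trdc was at 36.2 CPM in the class without the 3 genes and 1.65 in Cd8b1-only members. Whether each Ncr1-only cell is an NK cell was not tested. Cd8b1-only members held Pdcd1 at 210 CPM and Lag3 at 214, against 21.7 and 16.9 in Ncr1-only members. The class without the 3 genes held Cd4 at 275 CPM, Cd40lg, the helper T cell ligand for CD40, at 54.6 and Il17a at 48.7. As the Foxp3-only and Ncr1-only classes hold 33 cells each, these are values of few cells.

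Whether AT38 changed the number or make-up of cycling cells was compared over libraries. Members were 3.60% and 3.21% of all kept cells in vehicle and 5.18% and 5.45% in AT38, so the groups did not overlap. The exact two-sided permutation test over the 4 libraries gave p = 0.33, the smallest that 2 against 2 can give, and an adjusted p of 1 over the 11 shares tested. T and NK cells as a whole were 22.8% and 22.6% of kept cells in vehicle and 29.1% and 38.3% in AT38. Within T and NK cells, members were 15.8% and 14.2% in vehicle and 17.8% and 14.2% in AT38, which overlap (exact permutation p = 0.667). With at least 3 UMIs of Mki67 and Top2a, and with thinning before the threshold, that difference was below 0. The lineage shares of members, taken without thinning or further filters, overlapped between groups. The Cd8b1-only share differed by 1.5 percentage points (exact permutation p = 1), from 56.1% ± 2.03 (SD, n = 2) to 57.6% ± 4.64. Without the 71 cells with RNA of other lineages it was 60.4% and 58.7% in vehicle and 58.0% and 53.3% in AT38, the opposite order. With at least 4 Mki67 and Top2a UMIs it was 55.0% and 60.4% in vehicle and 67.0% and 63.3% in AT38, and at a mitochondrial maximum of 5% it was 54.4% and 51.7% against 63.2% and 55.1%. After thinning to 2000 UMIs the Ncr1-only share did not overlap, at 2.80% and 3.77% in vehicle and 1.60% and 1.15% in AT38, from 3, 6, 3 and 2 cells, and nor did it at 1000 UMIs, at 0.926% and 2.50% against 0.532% and 0. The exact permutation test gave p = 0.33 for each of these separations.

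Phase was read by comparing each thinned member's UMIs of the S-phase list with those of the G2/M list. More S-phase than G2/M UMIs were found in 36.4% and 45.3% of members in vehicle and 50.3% and 49.4% in AT38, which do not overlap, and the exact permutation test gave p = 0.33 and an adjusted p of 1. More G2/M UMIs were found in 47.7% and 45.9% in vehicle and 39.0% and 40.2% in AT38. With the threshold at 4 UMIs the S-phase shares were 28.3% and 40.6% against 46.6% and 44.4%. In 175 of the 627 thinned members the lists were within 1 UMI of each other, so the call is loose for these. Over all libraries the S-phase share was 48.8% of Cd8b1-only, 27.3% of Foxp3-only and 42.4% of Ncr1-only members.

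**Figure D3:**
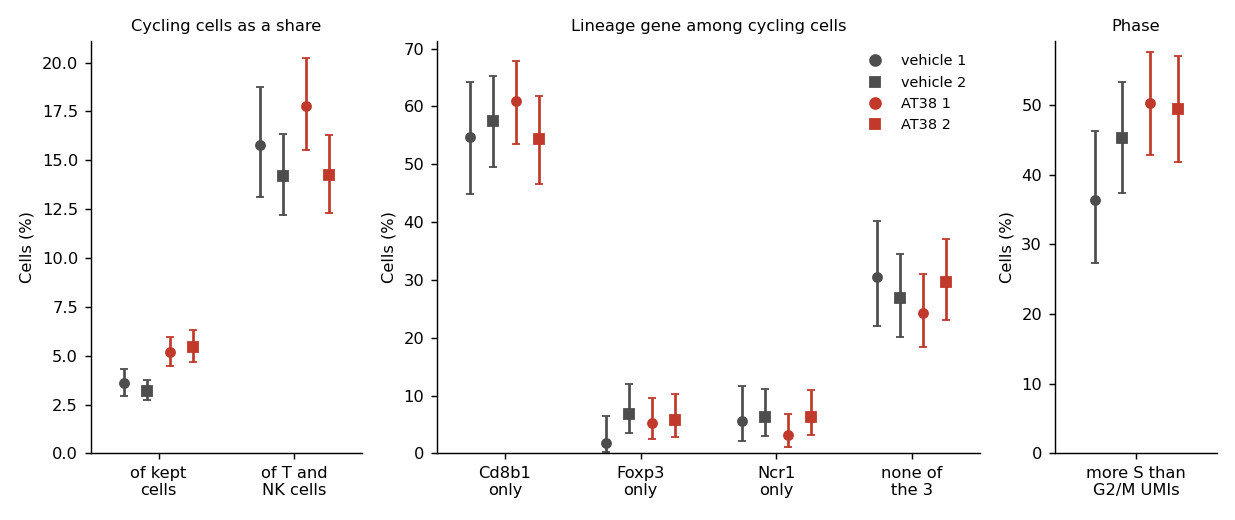
Percent of cells in each library, with 95% exact binomial intervals as bars (counting error only). Left, members among kept cells and among T and NK cells; middle, lineage classes among members; right, members with more S-phase than G2/M UMIs. Grey is vehicle and red is AT38, and the groups separate for the share of kept cells and for phase.

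In the test of genes, 1 of 9757 rose under AT38 in members and none fell (edgeR quasi-likelihood, Benjamini-Hochberg adjusted p under 0.05). That is 0.0102% of genes tested called in either direction, and 456 (4.67%) had an unadjusted p under 0.05, 200 (2.05%) higher and 256 (2.62%) lower. In Cd8b1-only members none of 8847 passed (0%), and 376 (4.25%) had an unadjusted p under 0.05. DESeq2 called 2. With 1 library left out the count ran from 2 without vehicle 1 through 16 without AT38 2 and 60 without vehicle 2 to 84 without AT38 1, where the lone library of a group is taken to vary as the other group does. The gene that rose was Xcl1 (chr1:164931644-164935527 on GRCm38, minus strand, a protein-coding gene), which encodes the lymphotactin that CD8 T and NK cells release and dendritic cells with the receptor XCR1 follow.

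Xcl1 in members was at 892 and 797 CPM in vehicle 1 and vehicle 2 and at 1492 and 1538 CPM in AT38 1 and AT38 2, from 1244, 1699, 3831 and 3916 UMIs. Both AT38 libraries lay above both vehicle libraries. The other 20 genes of the NK list summed to 2242 and 1867 CPM in vehicle and 1770 and 1885 in AT38, which overlap. The log2 fold change of Xcl1 was 0.87 ± 0.12 (SE) with an edgeR adjusted p of 0.00661. The share of members with any Xcl1 UMI was alike, at 56.5% and 61.9% in vehicle and 58.7% and 62.9% in AT38. The share with 20 or more was 11.1% and 14.4% in vehicle against 28.6% and 30.9% in AT38, and these shares do not overlap. The 5 highest cells held 14.2% of all Xcl1 UMIs of members over the 4 libraries. Within each library the 5 highest cells held 53.5% and 35.0% in vehicle and 35.6% and 26.3% in AT38.

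By lineage, Cd8b1-only members held Xcl1 at 1250 and 1061 CPM in vehicle and 1738 and 1774 in AT38. Within this class the log2 fold change was 0.65 ± 0.15 and did not pass (edgeR adjusted p = 0.928, unadjusted 0.000839). Ncr1-only members held 695 and 543 CPM in vehicle and 6163 and 3765 in AT38, from 6, 10, 6 and 11 cells, and their 5 highest cells held 71.2% of those UMIs. Foxp3-only members held 0, 1, 0 and 1 UMIs. Members with none of the 3 genes were at 339 and 419 CPM in vehicle and 716 and 716 in AT38. The 5 highest cells of this class held 91.7% and 57.8% of its Xcl1 UMIs in vehicle and 90.6% and 69.2% in AT38. Its shares of cells with 20 or more UMIs were 3.03% and 4.65% against 2.17% and 5.77%, which overlap. In non-cycling cells Xcl1 was at 504, 734, 682 and 784 CPM, which overlap, with a log2 fold change of 0.27 ± 0.24 (edgeR adjusted p = 0.838). The share of non-cycling cells with 20 or more Xcl1 UMIs did not overlap. It was 3.27% and 3.45% in vehicle against 3.65% and 5.83% in AT38, the same direction as in members. The difference between both states was 0.60 ± 0.19 on the log2 scale and did not pass (edgeR adjusted p = 0.691). The rise of Xcl1 in members passed in 12 of 15 alternatives, with log2 fold changes of 0.65 to 0.95. It missed with at least 3 UMIs of Mki67 and Top2a (edgeR adjusted p = 0.0591), with members that hold a Cd3 UMI (0.0707) and in Cd8b1-only members. Without the 71 cells with RNA of other lineages it was 0.76, with an edgeR adjusted p of 0.00716.

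**Figure D4:**
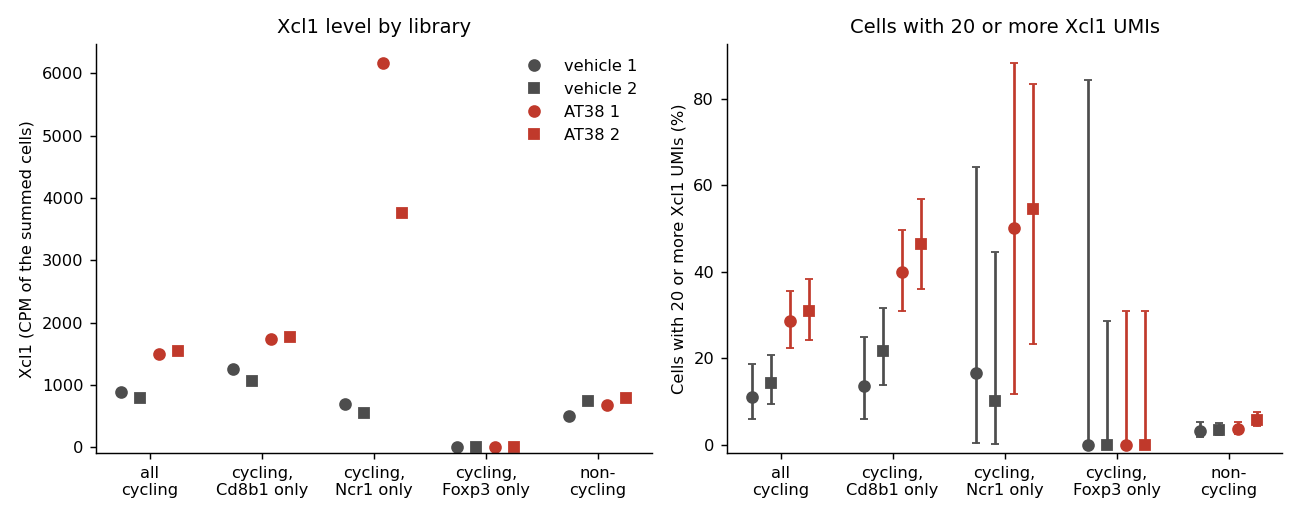
Xcl1 in CPM of the summed cells (left) and percent of cells with 20 or more Xcl1 UMIs with 95% exact binomial intervals (right), by library, in all members, 3 lineage classes of members and non-cycling cells. In all members vehicle is at 892 and 797 CPM and AT38 at 1492 and 1538. Non-cycling cells overlap between groups in CPM. Their share with 20 or more UMIs does not, at 3.27% and 3.45% in vehicle against 3.65% and 5.83% in AT38.

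No gene fell, and the following are values that did not pass. Tsc22d3, the glucocorticoid-induced leucine zipper, was at 119 and 95.2 CPM in vehicle and 63.5 and 49.9 in AT38, a log2 difference of -0.88 ± 0.17 (edgeR adjusted p = 0.137). In non-cycling cells Tsc22d3 fell by 0.48 ± 0.09 on the log2 scale (edgeR adjusted p = 0.0223), and the difference between both states did not pass. Klf2 was at 302 and 206 CPM in vehicle and 141 and 135 in AT38, a log2 difference of -0.85 ± 0.16 (edgeR adjusted p = 0.155). With at least 4 Mki67 and Top2a UMIs, a threshold chosen after seeing the data, Tsc22d3, Klf2 and Rhob passed at -0.94, -1.12 and -1.15 and 10 genes fell in all. Rhob, a small GTPase of vesicle traffic and stress, was at 80.3 and 70.8 CPM in vehicle and 40.9 and 40.4 in AT38 (edgeR adjusted p = 0.137). Hist1h2ap, a replication-dependent H2A histone whose reads may be shared with its near-identical copies, was at 866 and 744 against 501 and 512 CPM (edgeR adjusted p = 0.137). Klra4, an NK receptor of the Ly49 family with near-identical relatives, was at 38.0 and 26.3 against 10.5 and 14.1 CPM, and 5 cells held 70.3% of its UMIs. Cd7, an immunoglobulin superfamily receptor of T and NK cells, was at 113 and 106 against 58.0 and 72.6 CPM. Among genes above 0, Nt5e, the ectonucleotidase CD73, came next after Xcl1, at 85.3 and 94.3 CPM in vehicle and 126 and 137 in AT38 (edgeR adjusted p = 0.566). Bcat1, which starts the breakdown of branched-chain amino acids, was at 11.5 and 14.1 against 23.4 and 26.7 CPM (edgeR adjusted p = 0.895).

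None of the 43 genes of the G2/M list passed, yet 28 were lower in both AT38 libraries than in both vehicle libraries. Over all genes tested, 19.5% were lower in that way and 14.9% higher. In the G2/M list 39 log2 fold changes were below 0 and 4 above, with a median of -0.21 against -0.01 over all genes, and 9 had an unadjusted p under 0.05, all lower. Hjurp, the chaperone that loads centromeric histone, was at 151 and 120 CPM in vehicle and 88.4 and 86.0 in AT38, a log2 difference of -0.60 ± 0.15. Ncapd2, a condensin subunit, was at 128 and 137 against 84.5 and 106 CPM, and Ect2, which starts the cleavage furrow, at 49.5 and 51.1 against 30.4 and 37.3. Anln, the furrow scaffold anillin, was at 25.8 and 27.2 against 14.4 and 16.9 CPM. Mki67, which chose the members, was at 535 and 435 against 386 and 416 CPM, and Top2a at 665 and 680 against 555 and 626. Stmn1 was at 684 and 739 against 649 and 614 CPM. The counts below both vehicle libraries were 26 of 43 in Cd8b1-only members, 21 of 43 with at least 4 UMIs and 23 of 43 without the 71 cells, where 20.7%, 20.6% and 21% of all genes were. In non-cycling cells 23 of the list were measured well enough to test, and 1 was lower and 6 higher in both AT38 libraries, against 22.7% and 17.2% of all genes.

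None of the 29 replication genes passed, 22 of their log2 fold changes were above 0 with a median of 0.08, and 8 were higher and 2 lower in both AT38 libraries, against 14.9% and 19.5% of all genes. Without the 71 cells 18 were above 0 with a median of 0.04. Then 6 were higher and 5 lower in both, against 13.9% and 21% of all genes. Gins2, a subunit of the replicative helicase, was at 13.6 and 28.6 CPM in vehicle and 30.8 and 36.9 in AT38, a log2 difference of 0.64 ± 0.28. Mcm4 was at 88.9 and 124 against 126 and 134 CPM and Mcm6 at 213 and 254 against 283 and 259, both helicase subunits. Of the nucleotide genes, Dut, the dUTPase, was at 297 and 424 against 461 and 424 CPM, whereas Rrm2 was at 157 and 166 against 149 and 113. The chromatin, histone and tubulin list had 14 of 20 below 0 with a median of -0.05, and H2afx, the histone variant marked at DNA breaks, was at 209 and 197 against 147 and 164 CPM.

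MYC targets and ribosome biogenesis genes lay mostly above 0, again without a member that passed. Of 22, 20 had a log2 fold change above 0, with a median of 0.19, and 11 were higher in both AT38 libraries, none lower in both, against 14.9% and 19.5% of all genes. In Cd8b1-only members all 22 were above 0 and 14 were higher in both AT38 libraries, against 14.5% of all genes. Without the 71 cells 21 were above 0 and 7 (31.8%) were higher in both, against 13.9% of all genes. Hspd1, a mitochondrial chaperone, was at 257 and 318 CPM in vehicle and 361 and 375 in AT38, a log2 difference of 0.38 ± 0.13. C1qbp, a mitochondrial matrix protein, was at 76.0 and 96.2 against 118 and 112 CPM, and Cdk4, the G1 kinase, at 76.7 and 94.8 against 106 and 115. Of 20 glycolysis and hypoxia genes, 13 lay above 0 with a median of 0.06. In both AT38 libraries 7 (35%) were higher, against 14.9% of all genes. Without the 71 cells 15 lay above 0 with a median of 0.10, and 6 (30%) were higher in both, against 13.9%. In Cd8b1-only members 9 lay above and 11 below 0, with a median of -0.03. There 2 (10%) were higher and 5 (25%) lower in both, against 14.5% and 20.7% of all genes. Ldha, lactate dehydrogenase A, was at 507 and 655 against 707 and 724 CPM, and Gapdh at 1116 and 1313 against 1370 and 1486.

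Naive and memory genes lay mostly below 0. Of 15 tested, 14 log2 fold changes were below 0, with a median of -0.37, and 6 were lower in both AT38 libraries, against 19.5% of all genes. With at least 4 UMIs it was 15 of 15 and 12, against 20.6%, and without the 71 cells 13 of 15 and 8, against 21%. In Cd8b1-only members it was 9 of 14 and 4 (28.6%), against 20.7%. Besides Klf2, Il7r, the interleukin 7 receptor, was at 135 and 99.0 CPM in vehicle and 90.7 and 71.5 in AT38. Igfbp4 was at 22.9 and 15.5 against 5.84 and 10.6 CPM, and 5 cells held 47.7% of its UMIs. Tcf7 overlapped between groups, at 120 and 80.7 against 61.9 and 88.0 CPM. Of the 14 quiescence genes, 11 lay below 0, with a median of -0.14. Foxo1, the factor that keeps lymphocytes at rest and induces Klf2, lay the other way, at 106 and 105 against 131 and 148 CPM. The immediate early and heat shock list had 14 of 18 below 0 with a median of -0.10, among them Fos at 794 and 693 against 639 and 433 CPM. Cxcr4, a chemokine receptor that retains cells in tissue, was at 239 and 217 against 162 and 170 CPM.

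Effector and exhaustion genes gave no call other than Xcl1. Of 13 cytotoxic genes tested, 10 had log2 fold changes below 0, with a median of -0.18, and in Cd8b1-only members 6 of 11 did, with a median of -0.03. Prf1 was at 101 and 93.3 CPM in vehicle and 71.7 and 68.3 in AT38, a log2 difference of -0.45 ± 0.15 (edgeR adjusted p = 0.989), and Gzmb, granzyme B, overlapped at 219 and 148 against 198 and 79.3. Ifng, interferon gamma, overlapped at 123 and 158 against 187 and 145 CPM. The 20 inhibitory receptor and exhaustion genes had a median of 0.10 and none with an unadjusted p under 0.05. In Cd8b1-only members 7 lay above and 13 below 0, with a median of -0.07. There 0 were higher and 4 (20%) lower in both AT38 libraries, against 14.5% and 20.7% of all genes. Pdcd1 was at 181 and 167 against 162 and 176 CPM, a log2 difference of -0.02 ± 0.13, Tox, a factor of exhausted T cells, at 207 and 228 against 207 and 272, and Havcr2, the receptor TIM-3, at 35.8 and 30.0 against 43.2 and 37.3. Of 21 NK genes, 12 were below 0 and 9 above, and besides Klra4, Klrb1b was at 33.7 and 24.4 against 6.62 and 16.9 CPM. The lineage genes overlapped or nearly so. Cd3e was at 505 and 438 against 514 and 565 CPM, Cd8a at 540 and 572 against 609 and 535, and Cd8b1 at 350 and 277 against 377 and 315. Cd4 was at 83.9 and 65.7 against 74.8 and 87.2 CPM, Foxp3 at 40.1 and 33.8 against 45.6 and 29.1, Ncr1 at 17.2 and 11.3 against 6.62 and 13.7, and Trdc at 10.0 and 12.7 against 23.0 and 3.14.

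**Figure D5:**
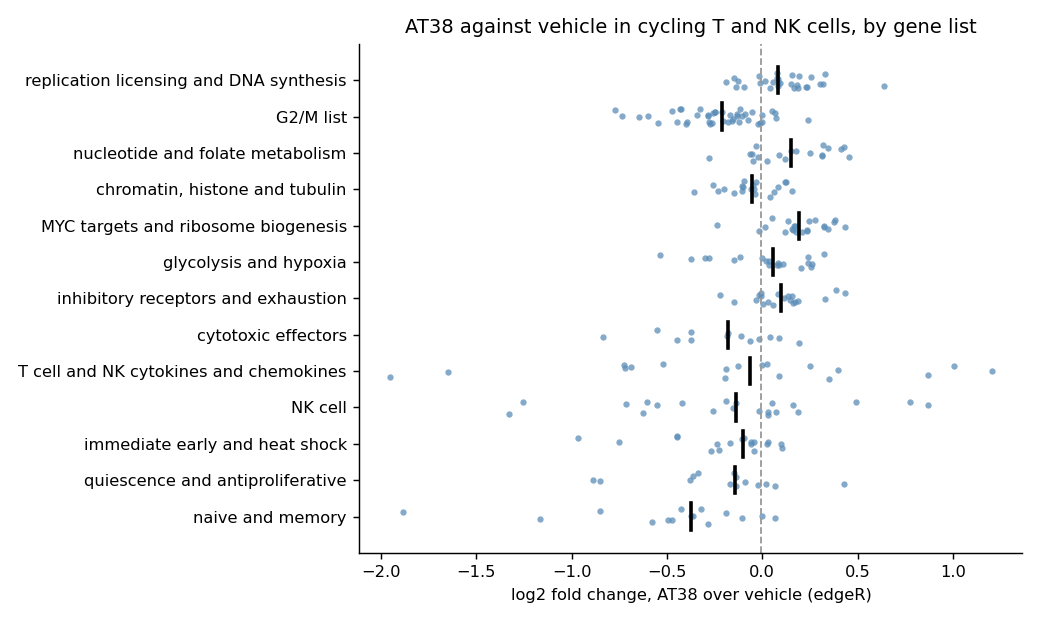
Log2 fold change of AT38 over vehicle in members (edgeR), 1 point a gene tested, by gene list. Black bars are list medians, at -0.21 for the G2/M list, 0.19 for MYC targets and -0.37 for naive and memory genes, and the dashed line is the median of all genes.

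In non-cycling T and NK cells, 8 of 10408 genes rose (0.0769%) and 52 fell (0.5%) under AT38 (0.576% called in either direction). Without cells that carried RNA of other lineages 3 rose and 7 fell. Whether the effect of AT38 differed between members and non-cycling cells was tested in one fit with a term for each library, and 17 of 10411 genes passed (0.163%), 12 with a higher (0.115%) and 5 with a lower (0.048%) effect in members. With the smallest p, Tbc1d4, a regulator of glucose transporter traffic, was at 176 and 190 CPM in vehicle and 214 and 309 in AT38 in members. In non-cycling cells its log2 fold change was -0.59 ± 0.44, and the difference of effects was 1.17 ± 0.14 (edgeR adjusted p = 0.000207). Gzma had a log2 fold change of -0.55 ± 0.49 in members and 0.31 ± 0.41 in non-cycling cells, a difference of -0.90 ± 0.14 (edgeR adjusted p = 0.00185). In members 5 cells held 52.5% of the Gzma UMIs. Without the 71 members and the non-cycling cells that carried RNA of other lineages, 1 of the 17, the chemokine gene Ccl2, passed, and without AT38 1 none of the 17 did.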

How the data were processed

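Single-cell RNA was counted in 4 libraries, 2 per group. The authors deposited unnormalised UMI counts, 1 matrix a library over 31053 genes, and Cell Ranger 3.1.0 and mm10 are named in the submitters' processing notes. Of 18001 barcodes, 14855 remained after removing those below 200 genes, below 500 UMIs or above 10% mitochondrial counts. Doublets were removed only in an alternative, by scanpy 1.11.5's scrublet score at 0.8% per 1000 barcodes, which marked 24 members (3.80%).

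UMIs were summed per library over members and tested with edgeR 4.0.16 (quasi-likelihood, TMM, filterByExpr, two-sided, Benjamini-Hochberg threshold 0.05). The same test was also run on counts simulated from the means and library sizes of these data. With the same spread between replicates for all genes, it found 60.2% of planted log2 changes of 1 in members and 96.9% of those of 2. In simulated non-cycling cells it found 84% and 100%. A gene that was not called may therefore still have changed by a log2 of 1. False calls numbered 6 in simulated members and 12 in simulated non-cycling cells. DESeq2 1.42.0, RLE scaling, no filter, a replicate block, left-out libraries, other thresholds and other cell filters were alternatives. Shares used exact permutation tests. Intervals are Clopper-Pearson at 95%. Gene positions are from GENCODE M21, matched by ID for 30934 genes.

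The members and the 29 gene lists were chosen with earlier results of these data known, so a list is described by counts and its median, with no test. Named genes were the 10 largest rises and falls that passed at 10 CPM or more without overlap of groups, filled with the smallest p, up to 4 genes per list by p (or by CPM against non-cycling cells), the 5 smallest p per direction of the interaction, and 16 marker and effector genes fixed by name. Of the genes these rules give, the text prints those that the described groups turn on. A result for 1 gene is not reported here.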

Additional observations from a re-analysis of the deposited data

Results flagged for a closer look

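The effect of AT38 differed between cycling and non-cycling T and NK cells for 17 genes, by the interaction term of an edgeR fit with a term for each library (Benjamini-Hochberg adjusted p under 0.05). Values are the log2 effect in members minus that in non-cycling cells. A higher effect in members was found for Tbc1d4 at 1.17, Gadd45a at 1.10, Ncoa7 at 1.05, Basp1 at 1.02, Cd83 at 1.00 and Cst3 at 0.72. It was also found for Zmynd15 at 2.60, with 5 cells holding 74.7% of the members' UMIs, for the chemokine genes Ccl2 at 2.15, Ccl9 at 1.60 and Ccl6 at 1.19, and for Fpr2 at 2.00 and Lst1 at 0.94. A higher effect was not always a rise. Within members the log2 fold change was -0.20 for Gadd45a and Basp1, -0.19 for Ccl9, -0.06 for Cst3, -0.04 for Ccl6 and -0.01 for Cd83. Within members it was above 0 for Tbc1d4, Ncoa7, Zmynd15, Ccl2, Fpr2 and Lst1. In non-cycling cells it was below 0 for each of the genes with a higher effect. A lower effect in members was found for Gzma at -0.90, Cd7 at -1.07, Igfbp4 at -1.61, Klra4 at -2.03 and Yae1d1 at -4.13. Yae1d1 was at 20.8 and 10.3 CPM in members of the vehicle libraries and 3.5 and 2.36 in AT38, and 5 cells held 65.2% of its UMIs. Cst3, a gene of myeloid cells, was at 619 and 627 against 583 and 593 CPM in members and fell in non-cycling cells, from 920 and 743 to 458 and 502. The markers of monocytes and macrophages in non-cycling cells summed to 1457 and 1460 CPM in vehicle and 998 and 725 in AT38. Without cells high in other-lineage RNA, 1 of the 17 genes, Ccl2, passed, at 3.52 (edgeR adjusted p = 0.000765). In the full fit Ccl2 in members was at 20.8 and 20.2 CPM in vehicle and 84.9 and 7.46 in AT38, which overlap, and 5 cells held 55.3% of its UMIs.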

How the results depend on the processing

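Genes called in members numbered 2 with DESeq2, 20 without a filter on low counts, 3 at 3 or more Mki67 and Top2a UMIs, 2 at a 5% mitochondrial maximum, 0 in Cd8b1-only members (376 at an unadjusted p under 0.05, 0 also by DESeq2) and 2 to 84 with 1 library left out, against 1. Chosen after seeing the data, 4 or more UMIs gave 11, members without other-lineage RNA 3 and members with a Cd3 UMI 0 (453 unadjusted). In non-cycling cells the count of 60 became 31 with DESeq2, 279 without a filter, 10 without other-lineage RNA and 15 to 396 with 1 library left out. The interaction count of 17 became 4 with DESeq2, 55 without a filter, 1 without other-lineage RNA, 11 in Cd8b1-only cells of both states and 1 to 136 with 1 library left out. In Cd8b1-only members the count of 0 became 30 without a filter and 5 to 62 with 1 library left out. Low-count filters change the genes tested; other causes were not tested. Replicate numbers are not said to pair libraries (correlation of same-numbered deviations 0.12), and with a replicate block the counts were 4 in members, 320 in non-cycling cells and 2 in Cd8b1-only members.

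The difference in members' share of T and NK cells (1.02 percentage points) was -0.0039 at 3 UMIs, -0.36 at 4, -0.36 and -0.41 with the threshold after thinning to 2000 and 1000 UMIs, and -0.76 to 2.79 with 1 library left out. The Cd8b1-only difference (1.5) was -3.91 without other-lineage RNA, -2.24 with classes after thinning to 1000, -4.38 and -16.1 with the threshold also after thinning to 2000 and 1000, and -1.78 to 4.78 with 1 library left out. The Foxp3-only difference was -0.20 after thinning to 1000 and -1.37 to 3.65 with 1 library left out, and the Ncr1-only difference 0 with the threshold after thinning to 1000 and -2.73 to 0.38 with 1 left out. The direction for members among kept cells and for S-phase calls was kept in every alternative run.

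Log2 effects that changed sign in Cd8b1-only members were Igfbp4 at 0.24, Havcr2 at -0.18, Cd8a at -0.11, Cd8b1 at -0.041 and Cd4 at -0.27. Pdcd1 was at 0.0045 without a filter, 0.11 at 3 UMIs and 0.13 at 4, Cd8a at -0.043 without other-lineage RNA and Foxp3 at -0.12 at a 5% mitochondrial maximum. Trdc was at -0.087 with the replicate block, -0.25 at 3 UMIs and -1.19 at 4. With 1 library left out the ranges crossed 0 for Gzmb (-1.15 to 0.13), Pdcd1 (-0.092 to 0.066), Tox (-0.064 to 0.37), Cd8a (-0.0067 to 0.14), Cd4 (-0.017 to 0.33), Foxp3 (-0.28 to 0.32), Ncr1 (-1.05 to 0.033) and Trdc (-1.80 to 1.00). None of these genes passed. A fit without 1 library assumes that the lone library varies like the other group, and rarely read genes such as Trdc and Ncr1 are limited by depth.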
